A study of Mus musculus with 6 samples.

Results

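Feedback inhibitors of kinase signaling were examined in hematopoietic stem cells (HSCs) of mice given ferulic acid (FA) over the long term (l-FA) and of control (Ctrl) mice. The set comprised 10 of the 27198 genes listed, taken by gene name. It held 5 dual-specificity phosphatases (Dusp1, Dusp2, Dusp5, Dusp6 and Dusp10), the Sprouty genes Spry1 and Spry2, the Sprouty-related Spred1, and the PHLPP phosphatase genes Phlpp1 and Phlpp2. The members were selected on the counts of these same 6 libraries, since the gene names were picked with their differences between groups already seen. The difference of each member between groups is therefore given as a description with its error, and no p-value is attached to a member.

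Growth factors and cytokines that sustain HSCs act through receptors such as c-Kit, which switch on the RAS-ERK cascade and the PI3K-AKT pathway, while stress signals use the related kinases JNK and p38. These cascades induce their own brakes. DUSP enzymes of the MAP kinase phosphatase class remove phosphate from both the threonine and the tyrosine of an active MAP kinase, Sprouty and Spred proteins restrain the step from receptor to RAF, and PHLPP enzymes dephosphorylate AKT.

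The HSCs were sorted from bone marrow of wild-type male C57BL/6 mice, as lineage-negative, Sca1+, c-Kit+, CD34- and CD135- cells. The age of the mice used is given as 8 to 10 weeks, without saying whether this was before the injections or at sorting. The l-FA mice received FA at 50 mg/kg by daily intraperitoneal injection for 30 days and the Ctrl mice received vehicle. Amplified cDNA of 3 Ctrl and 3 l-FA libraries was sequenced, and how many mice stand behind a library is not given in the sources used here. Total counts ran from 19287735 to 20380610 in Ctrl and from 19505689 to 20376031 in l-FA libraries. No source says that the libraries of a group came from separate mice, so the tests measure only the spread between these libraries, which may be technical.

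Transcripts of 11 HSC marker genes were all detected, which by itself does not establish the identity of the cells. Of these markers, 7 were higher and 1 lower in l-FA by edgeR's quasi-likelihood test (adjusted p under 0.05). The counts of this and the next marker lists stand beside 25.5% of all genes tested called higher and 25.0% called lower. Transcripts of Flt3, which encodes the CD135 protein sorted against, were present in every library, at 14568, 14232 and 15060 counts in Ctrl and 24368, 23986 and 23834 in l-FA. Flt3 was higher in every l-FA library (log2 fold change 0.64 ± 0.018 SE, edgeR adjusted p = 3.95e-06). The list of 10 neutrophil and monocyte genes had 8 lower and 2 higher, and its summed level went from between 23669 and 24512 CPM (counts scaled to library size) in Ctrl libraries to between 6205 and 6517 in l-FA libraries. Erythroid (2 higher and 1 lower of 7 tested) and megakaryocyte genes (3 of 5 higher) moved less, with summed levels of 83.3 to 89.1 against 95.2 to 97.1 CPM and of 207 to 217 against 295 to 301 CPM. Among B cell genes 1 of 3 tested was higher (summed level 55.6 to 55.9 CPM in Ctrl and 63.2 to 66.0 in l-FA), and Ms4a1 was listed at 0 counts in all l-FA libraries. T and NK cell genes had 2 tested and both lower (546 to 567 against 302 to 313 CPM), a sum made up almost wholly of Nkg7, at 556 ± 12.2 CPM in Ctrl against 307 ± 4.8 in l-FA. Klrb1c was at 3.98 ± 0.207 against 1.36 ± 0.678 CPM, Cd3e at 0.0669 ± 0.116 against 0.312 ± 0.177, and Trac was listed at 0 in l-FA. For endothelial and stromal genes edgeR called 0 of 2, with 1 at an unadjusted p under 0.05 and 0 by DESeq2 (17.2 to 19.1 against 17.8 to 19.4 CPM). The part of these cell type differences in the values of the members was not tested, and in bulk RNA fewer cells of a type cannot be told apart from less RNA per cell.

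Levels of different genes were compared per length, with the FPKM values of the authors. In Ctrl HSCs Dusp1 was far above the other members at 69.6 ± 4.09 FPKM (SD, n = 3), followed by Dusp6 at 20.2 ± 0.482, Dusp2 at 19.4 ± 1.18 and Dusp5 at 15.5 ± 0.378. Spred1 (2.39 ± 0.180 FPKM) and Spry1 (2.18 ± 0.172) formed a middle pair. Spry2, Dusp10, Phlpp1 and Phlpp2 were lowest, between 0.541 ± 0.167 and 0.142 ± 0.0239 FPKM. By mean FPKM over the libraries of both groups, Dusp1 stood at percentile 96.9 of the genes tested and Phlpp2 at percentile 4.02. Neighbours whose Ctrl libraries overlapped, so that their order was not resolved, were Dusp6 and Dusp2, Spred1 and Spry1, Spry2 and Dusp10, and Dusp10 and Phlpp1.

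In l-FA HSCs the order began in the same way, with Dusp1 at 111 ± 1.48, Dusp6 at 22.1 ± 0.590, Dusp2 at 10.4 ± 0.532 and Dusp5 at 9.69 ± 0.432 FPKM. Here Dusp6 and Dusp2 were apart, while Dusp2 and Dusp5 overlapped. Spry1 (2.76 ± 0.201 FPKM) came before Spred1 (2.67 ± 0.237), the reverse of Ctrl, but their libraries overlapped in both groups, so that this order was not resolved. Phlpp1 (1.65 ± 0.184 FPKM) and Dusp10 (1.12 ± 0.107) stood above Spry2 (0.591 ± 0.149). The lengths that the counts and FPKM imply for Dusp2 (2373 bases) and Dusp6 (5928 bases) exceed the spans listed for them (2218 and 4259 bases), so the per-length order of close neighbours is approximate. Shares and ratios that involve Dusp1 rest on its implied length of 6107 bases, in a listed span of 56539 bases.

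**Figure D1:**
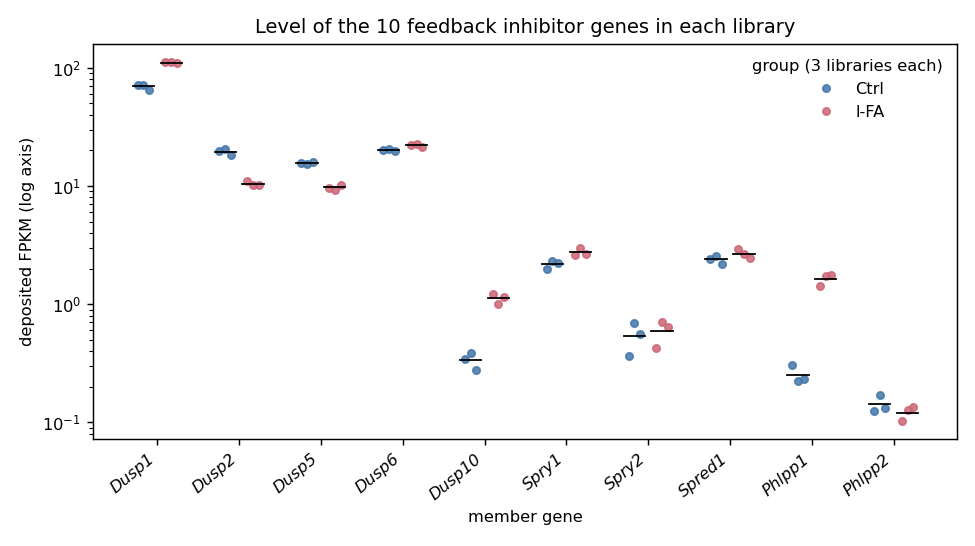
Deposited FPKM (log axis) of each member in the 3 Ctrl and 3 l-FA libraries, with a black bar at the group mean. Dusp1 is the highest member in every library. The l-FA points of Dusp1, Dusp6, Dusp10, Spry1 and Phlpp1 lie above all Ctrl points of the same gene, and those of Dusp2 and Dusp5 lie below.

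Differences between groups were taken from edgeR's quasi-likelihood fit over 16520 genes, which all 10 members entered. At an adjusted p under 0.05 the fit called 3 members higher in l-FA (Dusp1, Dusp10 and Phlpp1) and 2 lower (Dusp2 and Dusp5), where 25.5% of all genes tested were called higher and 25.0% lower. The other 5 members (Dusp6, Spry1, Spry2, Spred1 and Phlpp2) were not called. Dusp10 and Phlpp1 also exceeded a 2-fold rise, as did 6.68% of all genes tested, and 0 members exceeded a 2-fold fall, beside 5.1% of all genes tested. Dusp2 passed that limit without Ctrl library 3 (-1.03 on the log2 scale) and was -1.0 without l-FA library 1. The median log2 fold change of the members was 0.07, beside 0.00 over all genes tested. For 4 members every l-FA library lay above every Ctrl library in normalized CPM, and for 2 members below, against 30.4% and 29.9% of all genes tested, or 60.3% for either direction. Since the members were chosen with this contrast known, nothing is read from these shares.

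**Figure D2:**
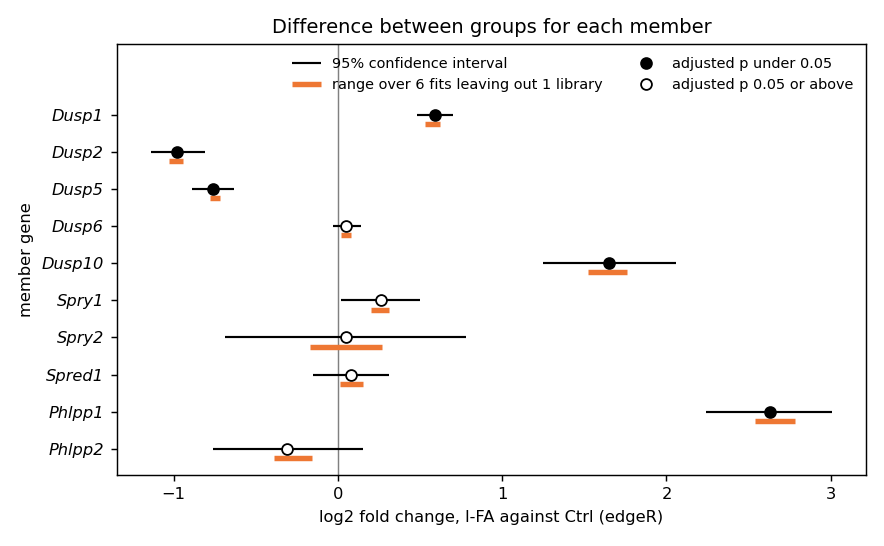
Log2 fold change of each member, l-FA against Ctrl, from edgeR (black lines, 95% confidence interval; filled points, adjusted p under 0.05; orange bars, range over 6 fits that each left out 1 library). Dusp1, Dusp10 and Phlpp1 lie to the right of 0, Dusp2 and Dusp5 to the left, and the interval of Spry2 is the widest, from -0.69 to 0.78.

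The nuclear MAP kinase phosphatases divided between both directions. Dusp1 (ENSMUSG00000024190), an immediate early gene whose product acts mainly on p38 and JNK and also on ERK, is listed on chromosome 17 from 26724564 to 26781102 (GRCm39, as for all gene positions in the deposited table). It had 8671, 8496 and 8078 counts in Ctrl and 13813, 13399 and 12997 in l-FA. All 3 l-FA libraries were above all 3 Ctrl libraries. In TMM-normalized CPM it went from 438 ± 27.8 to 659 ± 8.71 (SD, n = 3), which is 0.59 ± 0.046 (SE) on the log2 scale, and it stayed between 0.53 and 0.62 when any 1 library was left out. Its listed span shares 640 bases with Ergic1, a gene on the opposite strand in the GENCODE annotation, with 4433 to 5392 counts. Whether the counting used strand is not given in the sources used here.

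Dusp2 (ENSMUSG00000027368; chromosome 2, 127178079 to 127180296), which encodes a phosphatase of ERK and p38 found mostly in blood cells, had 924, 933 and 875 counts in Ctrl and 533, 469 and 468 in l-FA. The l-FA libraries were all below the Ctrl libraries. Its level was 47.4 ± 3.12 CPM in Ctrl libraries (SD, n = 3) and 24.1 ± 1.14 in l-FA libraries, which is -0.98 ± 0.068 (SE) on the log2 scale, just short of a 2-fold fall, and from -1.03 to -0.94 with 1 library left out. Dusp5 (ENSMUSG00000034765; chromosome 19, 53517540 to 53530862), whose product binds and inactivates ERK in the nucleus, had 757, 723 and 802 counts in Ctrl and 483, 451 and 490 in l-FA. It was lower in each l-FA library, at 23.3 ± 1.07 CPM against 39.5 ± 0.753 (log2 fold change -0.76 ± 0.054 SE). A listed noncoding gene, Gm50394, shares 547 bases with Dusp5 and had from 2 to 36 counts.

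Dusp1 was a larger part of the summed level of these genes in l-FA. Within a library, the ratio of Dusp1 to Dusp2 FPKM was 3.65, 3.54 and 3.59 in Ctrl and 10.1, 11.1 and 10.8 in l-FA. Together the 3 nuclear phosphatase genes summed to 105 ± 4.89 FPKM across Ctrl libraries (SD, n = 3), against 131 ± 1.24 in l-FA. Dusp2 and Dusp5 supplied 33.4% ± 0.832 of that sum in Ctrl and 15.4% ± 0.519 in l-FA. Their own ratio, Dusp2 to Dusp5, was 1.25 ± 0.105 in Ctrl and 1.08 ± 0.0776 in l-FA, and these groups overlapped.

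The sequence before the start of these 3 genes is shown because Dusp1 and Dusp5 each held a motif that neither the other nor Dusp2 held. Any link between these motifs and the change of a gene was not tested. The 250 bases before the RefSeq start (GRCm38.p6) of all 10 members were searched on both strands for the cyclic AMP response element TGACGTCA, the AP-1 site TGANTCA, the ETS-type site CCGGAAG, and the CArG box that binds serum response factor. Dusp1 held TGACGTCA from 143 to 136 bases before its start. Dusp5 held 2 CArG boxes side by side, CCATATTTGG from 82 to 73 and CCTTATATGG from 72 to 63 bases before its start. Of all 32851 windows of this length, 1.55% held TGACGTCA and 1.47% a CArG box. The AP-1 site (6.75% of windows) and the ETS-type site (6.91%) were in none of the 10 member windows, which says only that these letters are not there. The stretches below run 5′ to 3′ on the strand of the gene, from 250 to 51 bases before its start, with motif matches in capitals. They lie at chr17:26508523-26508722 (minus strand) for Dusp1, chr19:53528895-53529094 (plus strand) for Dusp5 and chr2:127335909-127336108 (plus strand) for Dusp2, a build other than the one of the deposited table.
Dusp1: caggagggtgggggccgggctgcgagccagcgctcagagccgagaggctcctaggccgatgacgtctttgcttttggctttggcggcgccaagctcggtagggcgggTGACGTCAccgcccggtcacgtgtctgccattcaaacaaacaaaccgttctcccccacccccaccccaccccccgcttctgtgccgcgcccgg
Dusp5: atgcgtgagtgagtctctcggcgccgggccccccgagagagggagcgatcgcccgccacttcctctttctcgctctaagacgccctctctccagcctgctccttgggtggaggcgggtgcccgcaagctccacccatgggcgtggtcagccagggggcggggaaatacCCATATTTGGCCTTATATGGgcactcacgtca
Dusp2: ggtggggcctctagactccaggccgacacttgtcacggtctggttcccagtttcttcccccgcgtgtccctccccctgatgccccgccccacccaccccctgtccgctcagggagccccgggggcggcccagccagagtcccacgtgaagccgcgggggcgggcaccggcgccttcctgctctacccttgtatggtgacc

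Dusp1 is also one of the genes that respond within minutes to stimuli, among them the handling of cells. A list of 15 handling response genes, which holds Fos and Egr1 but no member, had 9 higher and 3 lower in l-FA by edgeR, with a median log2 fold change of 0.72. Of all genes tested, 25.5% were called higher and 25.0% lower. The 3 lower were the heat shock genes Hspa8 (-0.32 on the log2 scale), Hsp90aa1 (-0.87) and Hspa1b (-0.63), named after their values were seen. The summed level of the list was 4505 to 5862 CPM in Ctrl and 8538 to 8733 CPM in l-FA libraries. Jun, in that list, had 2582 counts in Ctrl library 1 against 27356 and 29257 in the other Ctrl libraries. Fos (9630, 9547 and 9664 counts in Ctrl libraries 1 to 3) and Egr1 (8009, 7654 and 8253), in the same list, were not low in Ctrl library 1. The part of handling in the level of Dusp1 was not tested.

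Dusp6 (ENSMUSG00000019960; chromosome 10, 99099093 to 99103351) encodes the cytoplasmic phosphatase that is specific for ERK and is a common readout of ERK activity. It had 2382, 2358 and 2378 counts in Ctrl and 2681, 2630 and 2484 in l-FA. After TMM normalization the groups overlapped, at 123 ± 3.58 CPM in Ctrl libraries (SD, n = 3) and 128 ± 3.38 in l-FA libraries. In the deposited FPKM, which are scaled otherwise, they did not, at 20.3, 20.6 and 19.7 in Ctrl and 22.2, 22.7 and 21.5 in l-FA. Whether the Dusp6 groups overlap thus depends on the scaling. Its log2 fold change of 0.05 had a 95% confidence interval of -0.03 to 0.14, so a change larger than these bounds was not seen at this depth.

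Dusp10 (ENSMUSG00000039384; chromosome 1, 183745499 to 183807833), whose product prefers JNK and p38 over ERK, had 24, 26 and 20 counts in Ctrl and 87, 69 and 78 in l-FA. Every l-FA library was above every Ctrl library despite the low counts. The level was 1.22 ± 0.197 CPM in Ctrl libraries (SD, n = 3) and 3.83 ± 0.357 in l-FA libraries, which is 1.65 ± 0.17 (SE) on the log2 scale, or 3.14-fold, and from 1.52 to 1.76 with 1 library left out. An overlapping listed gene, 1700056E22Rik, had 7 to 21 counts. Dusp1 remained 91.4 to 112 times as high as Dusp10 per length in l-FA libraries, against 188 to 233 times in Ctrl libraries.

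Over the 5 DUSP members the summed level was 125 ± 5.41 FPKM across Ctrl libraries (SD, n = 3), against 154 ± 1.77 in l-FA. Dusp1 made up 55.6% ± 0.903 of this sum in Ctrl and 71.9% ± 0.325 in l-FA.

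Of the Sprouty and Spred members, which restrain receptor signaling ahead of ERK, none was called. Spry1 (ENSMUSG00000037211; chromosome 3, 37694096 to 37698747), which is induced by ERK and acts back on RAS activation, had 131, 149 and 152 counts in Ctrl and 178, 195 and 173 in l-FA. Its l-FA libraries were all above its Ctrl libraries, at 8.95 ± 0.672 CPM against 7.48 ± 0.594. The log2 fold change was 0.26 ± 0.10 (SE) with an unadjusted 95% confidence interval of 0.02 to 0.50, and it did not pass the adjusted threshold in edgeR or under any alternative run. Spry2 (ENSMUSG00000022114; chromosome 14, 106129381 to 106134253), a close relative of Spry1, had only 15, 28 and 24 counts in Ctrl and 18, 29 and 26 in l-FA. These groups overlapped, and the interval of its log2 fold change, -0.69 to 0.78, was too wide to exclude a 1.5-fold change in either direction. Spred1 (ENSMUSG00000027351; chromosome 2, 116951855 to 117012760), whose product brings the RAS inhibitor neurofibromin to the membrane, had 339, 346 and 315 counts in Ctrl and 419, 366 and 336 in l-FA. At 17.3 ± 1.40 and 18.3 ± 1.57 CPM its groups overlapped too, with an interval of -0.15 to 0.31.

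The PHLPP pair differed within itself. Phlpp1 (ENSMUSG00000044340; chromosome 1, 106099482 to 106321980), which encodes a phosphatase of AKT, had 42, 30 and 33 counts in Ctrl and 205, 238 and 242 in l-FA. All l-FA libraries lay far above the Ctrl libraries, at 11.2 ± 1.29 CPM against 1.82 ± 0.322 (SD, n = 3). The log2 fold change was 2.63 ± 0.16 (SE), or 6.17-fold, and from 2.54 to 2.78 with 1 library left out, the largest among the members in each of these fits. The listed gene inside its span, Gm38235, had at most 2 counts in a library. Phlpp2 (ENSMUSG00000031732; chromosome 8, 110595174 to 110671303), which encodes the second AKT phosphatase of the family, had 34, 45 and 37 counts in Ctrl and 29, 34 and 36 in l-FA. Its groups overlapped at 2.01 ± 0.348 and 1.63 ± 0.219 CPM, and the interval of its log2 fold change ran from -0.76 to 0.15.

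The ratio of Phlpp1 to Phlpp2 FPKM was 2.43, 1.31 and 1.75 in Ctrl and 13.9, 13.8 and 13.2 in l-FA libraries. For the Sprouty pair the ratio of Spry1 to Spry2 was 5.48, 3.34 and 3.97 in Ctrl and 6.20, 4.22 and 4.17 in l-FA, and these ranges overlapped.

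**Figure D3:**
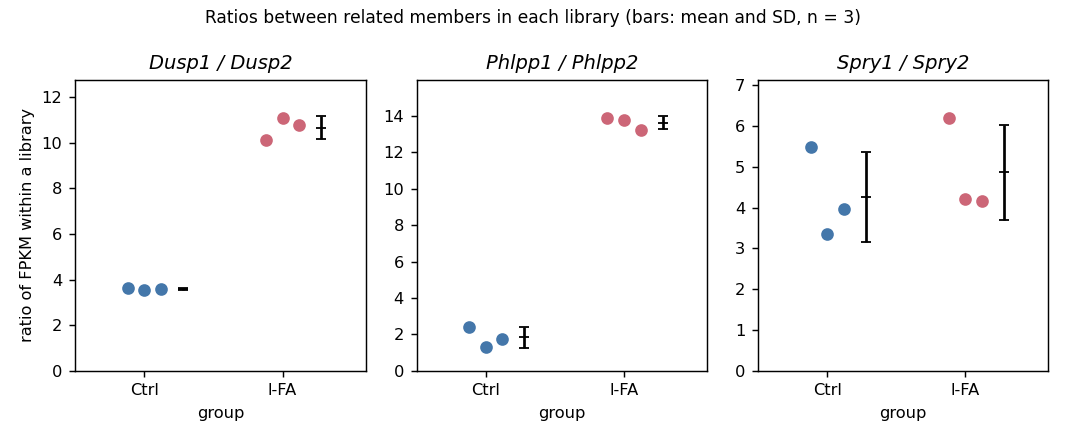
Ratio of FPKM between related members within each library (points), with the mean and SD of 3 libraries per group (bars). The Dusp1 to Dusp2 and Phlpp1 to Phlpp2 ratios are separate between groups, while the Spry1 to Spry2 ratios overlap.

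The spread between libraries of one group was ordinary for the level of each member. The members were chosen with results known that depend in part on this spread, so it is given as a description. Against the 500 genes nearest in mean level, the within-group SD of log2 CPM stood between percentile 15.0 (Dusp5) and percentile 82.0 (Dusp1). Spry2 had the largest ratio between libraries of one group among the members, 1.92, and no other member exceeded 1.39.

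The other genes of the same pathways were taken from 10 lists that hold no member. Of 121 genes named, 111 were tested, and edgeR called 31 higher and 31 lower in l-FA at an adjusted p under 0.05, which is 55.9% beside 50.5% of all genes tested. The counts of each list below stand beside 25.5% of all genes tested called higher and 25.0% called lower. Among the other MAP kinase phosphatases 1 of 4 tested was called, Dusp4, the nuclear ERK phosphatase. It had 86, 106 and 81 counts in Ctrl and 150, 171 and 117 in l-FA (log2 fold change 0.60 ± 0.19 SE, edgeR adjusted p = 0.0347), and passed in only 2 of the 6 fits that left out 1 library. Dusp16, a JNK phosphatase, did not pass (0.37 ± 0.23 SE, edgeR adjusted p = 0.223). Of 8 atypical dual-specificity phosphatases tested, Dusp23 was higher and Dusp18 and Dusp19 were lower, named here after their values were seen (log2 fold changes of 0.52, -0.69 and -0.67).

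Of the other Sprouty and Spred genes, edgeR called 0 of 3, with 0 at an unadjusted p under 0.05 and 0 by DESeq2. Spry4 had 0, 6 and 8 counts in Ctrl and 15, 10 and 16 in l-FA, with 1 Ctrl library at 0, and did not pass (log2 fold change 1.45 ± 0.67 SE, edgeR adjusted p = 0.117). Spred2 stood at 2.31 ± 0.434 and 2.17 ± 0.468 CPM (adjusted p = 0.752).

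Beside the PHLPP genes, the other brakes of AKT and PI3K signaling had 3 higher and 1 lower of 10 tested. Tsc1, which with Tsc2 holds mTOR complex activity down, rose from 18.9 ± 1.28 to 47.0 ± 1.06 CPM (log2 fold change 1.31 ± 0.063 SE, edgeR adjusted p = 2.49e-05). Ppp2ca, a catalytic subunit of protein phosphatase PP2A, fell from 116 ± 2.78 to 40.8 ± 0.288 CPM (log2 fold change -1.51 ± 0.034 SE, edgeR adjusted p = 1.92e-06). Inpp5d, encoding the lipid phosphatase SHIP1, did not pass (0.02 ± 0.057 SE, edgeR adjusted p = 0.752).

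Among 17 inhibitors of receptor and RAS signaling, 5 were higher and 6 lower. Past a 2-fold change were 1 higher and 2 lower. Errfi1, an inducible inhibitor of ERBB receptors that was named after its values were seen, had 101, 86 and 95 counts in Ctrl and 5, 4 and 7 in l-FA (log2 fold change -4.19 ± 0.21 SE, edgeR adjusted p = 2.69e-05). Nf1, the neurofibromin gene, was also named after its values were seen. It had 43, 47 and 48 counts in Ctrl and 110, 118 and 117 in l-FA (log2 fold change 1.24 ± 0.11 SE, edgeR adjusted p = 0.000248). Sh2b3, encoding the adaptor LNK that limits cytokine receptor signaling, did not pass (0.09 ± 0.26 SE, edgeR adjusted p = 0.804), and its counts in Ctrl were 1524, 1409 and 778.

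The receptors themselves had 7 higher and 2 lower of 10. Kit rose by 0.12 in log2 terms (± 0.019 SE, edgeR adjusted p = 0.00238). Fgfr1, a receptor whose signaling Sprouty proteins restrain, rose from 7.06 ± 0.979 to 16.0 ± 1.25 CPM (log2 fold change 1.18 ± 0.12 SE, edgeR adjusted p = 0.000373).

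In the RAS-ERK cascade edgeR called 9 of 19 genes lower and 0 higher, with 1 higher at an unadjusted p under 0.05 and 1 by DESeq2. The share called either way was 47.4%, beside 50.5% of all genes tested, and 25.0% of all genes tested were called lower. The median log2 fold change of this list was -0.22. The number called lower dropped to 5 without Ctrl library 2 or without l-FA library 3. Grb2, the adaptor that carries the receptor signal to RAS (-0.88 ± 0.049 SE, edgeR adjusted p = 4.11e-05), had the largest fall in the list and was named after its values were seen. Mapk3, encoding ERK1, did not pass (0.06 ± 0.059 SE, edgeR adjusted p = 0.404).

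The JNK and p38 cascade had 3 higher and 6 lower of 16, with a median of -0.10. Mapk14, encoding p38 alpha, had 4661, 1432 and 2226 counts in Ctrl and 2511, 2722 and 1270 in l-FA, a spread within groups that left its change unresolved (log2 fold change -0.44 ± 0.46 SE, edgeR adjusted p = 0.476). The PI3K-AKT cascade had 4 higher and 4 lower of 14. Akt1 was lower by a small amount (-0.18 ± 0.039 SE, edgeR adjusted p = 0.00911). Pik3ca, a catalytic subunit of PI3K, fell from 17.8 ± 4.30 to 6.59 ± 0.550 CPM (log2 fold change -1.44 ± 0.19 SE, edgeR adjusted p = 0.00114).

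Genes that ERK signaling commonly induces had 8 higher and 1 lower of 12 tested, with a median log2 fold change of 0.64 beside 0.00 for all genes tested. The number called higher was 6 by DESeq2 and 6 with the replicate block. It was from 6 to 8 when 1 library was left out. Egr1 rose from 414 ± 3.58 to 900.0 ± 16.0 CPM (log2 fold change 1.12 ± 0.020 SE, edgeR adjusted p = 1.04e-06) and Fos by 0.84 in log2 terms (± 0.024 SE, edgeR adjusted p = 3.95e-06). Etv5, an ETS factor downstream of ERK, rose by 0.55 (± 0.056 SE, edgeR adjusted p = 0.000373). Ccnd1, encoding cyclin D1, did not pass (-0.05 ± 0.10 SE, edgeR adjusted p = 0.691). The list holds no member. Members that ERK signaling induces or that serve as its readout did not move alike. Dusp6 was at 0.05, Spry1 at 0.26 and Spry2 at 0.05, none of them called. Dusp5 was called lower at -0.76. Of the other inducible nuclear phosphatases, Dusp1 was called higher at 0.59 and Dusp2 lower at -0.98. The single gene of the list called lower was Etv1, named after its values were seen (-1.49). Egr1, Fos, Ier2 and Ier3 are in both this list and the handling response list, and the part of handling in this list was not tested either.

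**Figure D4:**
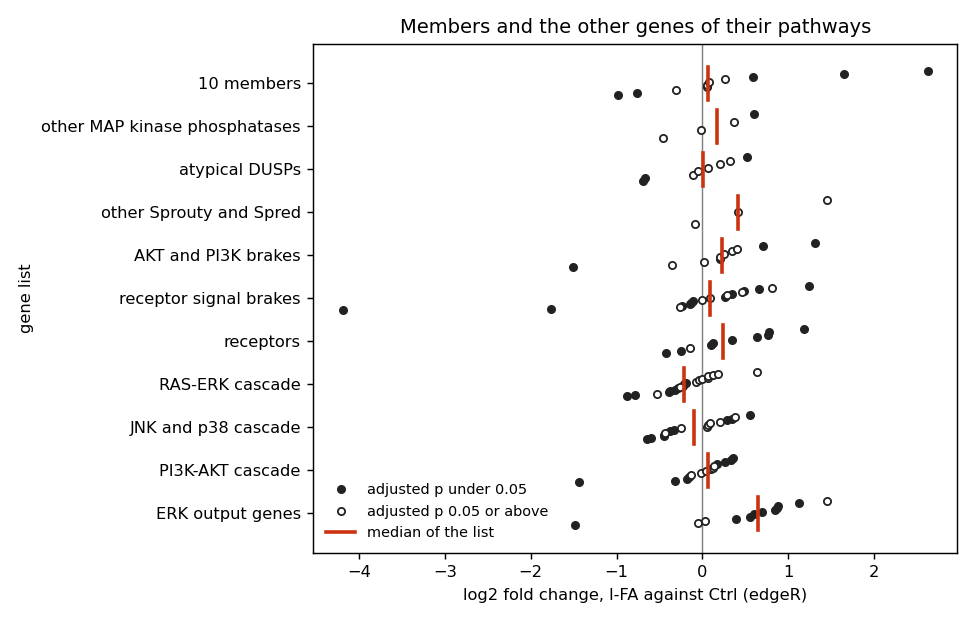
Log2 fold change of each gene tested, l-FA against Ctrl, for the members and the 10 pathway lists (filled points, adjusted p under 0.05; red bar, median of the list). The medians of the RAS-ERK cascade (-0.22) and of the ERK output genes (0.64) lie on opposite sides of 0, and the members reach from -0.98 to 2.63.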

How the data were processed

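HSC libraries were prepared from amplified cDNA (SMART-Seq HT, KAPA Hyper Prep) and sequenced on an Illumina instrument. The deposited table gives, for each gene, the unnormalized counts and the FPKM values of the authors, whose scaling is not TMM, so that group ratios in FPKM differ slightly from the log2 fold changes. The submitters' processing notes name HISAT2, SAMtools 1.3.1, StringTie, edgeR and the build GRCm39, without roles, and the annotation and counting tool are not given in the sources used here. Groups and replicate numbers came from the labels.

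The quasi-likelihood test of edgeR 4.0.16 (R 4.3.3) was applied to the counts after TMM scaling and filterByExpr, which kept 16520 of 27198 genes, and p-values were adjusted over these by Benjamini-Hochberg. The code was tested on simulated data. The study used DESeq2, which was run as an alternative (1.42.0). The standard error is the log2 fold change divided by the square root of F. Depth was even. The cDNA was amplified and no molecular identifiers are described, so reads may not be separate molecules. Libraries of one group differed by a median chi-square of 0.889 to 1.07, above the 0.455 of counting error alone, and were kept apart.

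The members and lists were chosen with earlier results of these data known. Named pathway genes are a fixed set plus list genes past an adjusted p of 0.05 and a 2-fold change with a mean count of at least 100. Genes named outside this rule are said to be so. Dusp8, Dusp13, Spry3, Il17rd, Cd3g and Lepr were not analysed here. Promoter windows came from RefSeq (GRCm38.p6), where all 10 members matched by symbol. The planned comparison of proteins was not run, and some genes of the fixed set are not reported here.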

Additional observations from a re-analysis of the deposited data

How the results depend on the processing

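The calls of the members, 3 higher and 2 lower, were the same in number under all 12 alternatives fitted. These were RLE and upper-quartile scaling, DESeq2, dropping the low-count filter, requiring 10 counts in each library, a replicate block, and each library left out in turn. Of 120 member values under these alternatives 117 kept their direction and side of the threshold. The other 3 were of Spry2, whose log2 fold change ran from -0.17 to 0.27 when 1 library was left out (-0.17 without Ctrl replicate 1, -0.10 without l-FA replicate 2 and -0.0032 without l-FA replicate 3). The order of levels was the same for all 10 members with TMM CPM per kb. That unit used the lengths implied by the deposited counts and FPKM, so it differs from FPKM only by a factor per library. It therefore could not test the order of levels or those lengths.

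Of 225 values of named pathway genes 213 kept direction and call. With 1 library left out, direction turned within the ranges of Spred2 (-0.23 to 0.08), Inpp5d (-0.01 to 0.10), Sh2b3 (-0.18 to 0.26), Mapk14 (-0.74 to 0.17) and Ccnd1 (-0.11 to 0.04). The cause was not tested. Leaving out 1 library gave 5 to 8 RAS-ERK genes lower. Over all genes, 1946 passed the adjusted p and the 2-fold limit, 3335 when the low-count filter was dropped and 930 when 10 counts were required in each library, since each filter changes the genes tested.

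With the replicate block, 3749 genes were higher and 3656 lower, against 4205 and 4131 without it. Same-numbered libraries did not deviate together (correlations 0.0107, -0.0109 and -0.0691), so no pairing was assumed. Members with under 50 counts in each library, Spry2 and Phlpp2, could not show small changes at this depth.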
